A study of Homo sapiens with 14 samples.

Results

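RNA-Seq of 2 SIN3A/3B double knockout (DKO) lines, SIN3A+SIN3B-DKO1 (DKO1) and SIN3A+SIN3B-DKO2 (DKO2), was compared to ask which genes differ between lines of the same genotype. Each line had 2 libraries, so 4 of the 14 libraries of the series were compared, and the spread of each gene was estimated over all 14. Both lines were made from MDA-MB-231, an established human triple-negative breast cancer (TNBC) cell line, with CRISPR/Cas9, and both lack SIN3A and SIN3B, grown without treatment in serum-containing medium. Parental MDA-MB-231 cells carried neither knockout and also had 2 libraries. The remaining lines, SAP30-KO1, SAP30-KO2, MLL1-KO1, and MLL1-KO2, had 2 libraries each and entered only the estimate of spread and the values given for comparison. By the methods, each line is a population made from several clones, their number not given, in which immunoblots were used to check that the proteins were lost. A single guide RNA is listed for SIN3A and another for SIN3B, and how DKO1 and DKO2 differed in their making is not given in the sources used here.

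SIN3A and SIN3B are paralogous scaffold proteins. They bring the histone deacetylases HDAC1 and HDAC2, together with subunits such as SAP30, to DNA-bound transcription factors, and the complex is best known as a corepressor that removes acetyl groups from histones. In breast cancer cells it has been studied in tumor growth, angiogenesis, and metastasis.

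The mRNA of the targeted genes was present in both DKO lines, so mRNA level is no check of the knockout, since small edits can remove a protein while its mRNA remains. SIN3A measured 60.6 and 62.5 TPM (transcripts per 1000000) in the DKO1 libraries, 55.1 and 55.2 in DKO2, and 43.1 and 45.4 in parental cells. Thus both DKO lines were above parental cells, and DKO1 was above DKO2 by 0.16 on the log2(TPM + 0.5) scale, which is used for every difference below (95% interval 0.07 to 0.24, limma adjusted p = 0.022). SIN3B measured 50.2 and 49.0 TPM in DKO1, 49.7 and 43.5 in DKO2, and 75.1 and 77.4 in parental cells, with a difference between the DKO lines of 0.09 (95% interval -0.03 to 0.21). None of the 22 SIN3 complex subunits tested passed the threshold between the DKO lines, and their differences ran from -0.19 to 0.16.

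In total, 13540 genes were tested, and 302 (2.23%) passed an adjusted p of 0.05 (limma, Benjamini-Hochberg) and a minimum change of 1.5-fold. Of these, 165 (1.22%) were higher in DKO1 and 137 (1.01%) were lower in DKO1 than in DKO2. At an unadjusted p under 0.05 there were 3890 genes. The median size of the 302 differences was 1.81-fold, 111 genes reached 2-fold, and 28 reached 4-fold. For all 302, both libraries of one line lay above both of the other. These genes were chosen by the same difference, so this adds no support to the calls. Many were weakly expressed: the median of their mean TPM over the DKO libraries was 3.09 for the genes higher in DKO1 and 3.84 for those lower in DKO1, against 25.3 over all genes tested. In 108 of them the mean TPM was under 1 in one of the lines. The same threshold called 20 genes (0.148%) between SAP30-KO1 and SAP30-KO2 and 1411 (10.4%) between MLL1-KO1 and MLL1-KO2. Of the 302 genes, 11 (3.64%) were also called between the SAP30-KO lines, which is 55% of that list, and 118 (39.1%) were also called between the MLL1-KO lines, which is 8.36% of that list. The labels do not say whether the 2 libraries of a line came from separate cultures, so p-values measure the spread between these libraries, which may be technical.

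**Figure D1:**
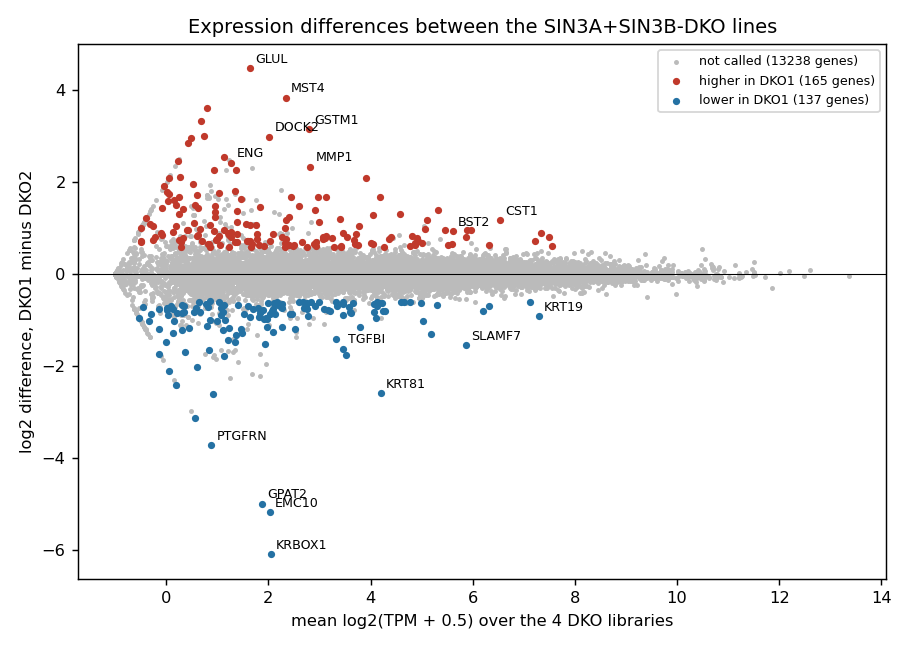
Difference between DKO1 and DKO2 (y axis, log2) against the mean level over the 4 DKO libraries (x axis, log2(TPM + 0.5)), 1 point per gene tested. The 165 genes higher in DKO1 are red and the 137 lower are blue; most lie at low levels, and the largest differences are those of GLUL above 0 and of KRBOX1, EMC10, and GPAT2 below 0.

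The number of genes called depended on single libraries. Of all genes tested, 2.87% were at least 1.5-fold apart between the DKO1 libraries and 3.46% between the DKO2 libraries. DKO2 had the least similar pair of libraries of the 7 lines by the mean chi-square of reads per gene, 8.21 against 1.48 in DKO1. No p-value was computed from it. Among 11484 genes with at least 50 reads in both DKO2 libraries, 27 were at least 1.5-fold higher in replicate 1 and 11 were higher in replicate 2. These counts were 1 and 5 in DKO1. One of the 27 was HSPA5, an endoplasmic reticulum chaperone, at 1485 TPM against 939.7 in replicate 2. Without DKO2 replicate 1, 254 genes were higher and 171 lower in DKO1. Without DKO2 replicate 2, 106 were higher and 104 lower, without DKO1 replicate 1 the counts were 109 and 103, and without DKO1 replicate 2 they were 97 and 106. There were 137 genes called with all libraries and also without each of the 4 DKO libraries in turn, of which 71 were higher and 66 lower in DKO1. Fitted on the 4 DKO libraries alone, the test called 54 genes.

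The 3 largest differences by size were those of KRBOX1, EMC10, and GPAT2, which were near absent from DKO1. KRBOX1, which encodes a protein with a KRAB box, had 0 and 0 reads in DKO1, 184 and 204 in DKO2, and 118 and 117 in parental cells. It was therefore at least 64.4-fold lower in DKO1 than in DKO2, taking 3 reads per library as the floor. EMC10, a subunit of the endoplasmic reticulum membrane complex that inserts membrane proteins, measured 0.174 and 0.182 TPM in DKO1, 24.5 and 23.4 in DKO2, and 32.6 and 30.6 in parental cells, and its ratio from the reads was 135 (exact 95% interval 61.6 to 367.9, counting error only). GPAT2, a glycerol-3-phosphate acyltransferase, measured 0.125 and 0.175 TPM in DKO1, 20.6 and 19.7 in DKO2, and 17.4 and 15.3 in parental cells, a ratio of 135 (65.3 to 336.7). In all 3 genes, DKO2 stayed near the parental level, and DKO1 stood far below both.

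The converse pattern was seen in GLUL and MST4. GLUL, glutamine synthetase, measured 13.6 and 14.9 TPM in DKO1, 0.144 and 0.172 in DKO2, and 50.5 and 49.2 in parental cells. Both DKO lines were thus below parental cells, and the level in DKO1 exceeded that in DKO2 by 90.1-fold from the reads (52.5 to 169.8). MST4, a serine/threonine kinase of the germinal center kinase III family whose current symbol is STK26, measured 18.8 and 18.5 TPM in DKO1, 0.641 and 1.06 in DKO2, and 14.8 and 14.3 in parental cells. Here DKO1 lay somewhat above parental cells and DKO2 far below, with a mean 22-fold lower than that of DKO1.

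For 4 of these 5 genes the 250 bases before the transcript start listed by RefSeq are given, because the RNA of these genes was far lower in one DKO line than in the other. The sequences were located in GRCh37 by an exact match, run 5′ to 3′ on the gene's strand, and mark each CG dinucleotide in capitals, the pair of letters at which human DNA is methylated. GLUL lies at chr1:182360926-182361175 on the minus strand, MST4 at chrX:131157367-131157616 on the plus strand, EMC10 at chr19:50979514-50979763 on the plus strand, and GPAT2 at chr2:96702014-96702263 on the minus strand.
GLUL: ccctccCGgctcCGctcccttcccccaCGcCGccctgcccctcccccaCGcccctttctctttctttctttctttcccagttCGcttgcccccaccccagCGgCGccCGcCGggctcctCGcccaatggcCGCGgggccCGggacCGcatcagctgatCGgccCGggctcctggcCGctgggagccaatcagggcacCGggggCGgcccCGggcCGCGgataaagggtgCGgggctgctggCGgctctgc
MST4 (STK26): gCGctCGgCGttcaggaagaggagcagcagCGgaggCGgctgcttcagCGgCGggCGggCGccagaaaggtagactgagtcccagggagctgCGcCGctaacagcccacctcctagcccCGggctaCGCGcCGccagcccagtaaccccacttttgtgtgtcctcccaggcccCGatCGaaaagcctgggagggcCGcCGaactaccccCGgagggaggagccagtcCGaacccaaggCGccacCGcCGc
EMC10: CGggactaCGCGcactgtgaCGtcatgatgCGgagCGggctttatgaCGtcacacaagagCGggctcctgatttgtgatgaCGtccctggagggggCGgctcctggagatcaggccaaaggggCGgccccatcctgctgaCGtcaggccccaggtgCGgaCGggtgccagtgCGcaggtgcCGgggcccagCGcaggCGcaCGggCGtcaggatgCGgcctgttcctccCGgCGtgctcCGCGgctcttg
GPAT2: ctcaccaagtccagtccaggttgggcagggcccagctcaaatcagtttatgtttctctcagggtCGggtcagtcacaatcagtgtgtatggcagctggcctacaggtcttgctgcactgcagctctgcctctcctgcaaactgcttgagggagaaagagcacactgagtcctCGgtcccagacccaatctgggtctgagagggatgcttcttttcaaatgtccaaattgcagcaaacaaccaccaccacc
The windows hold 25 CG dinucleotides for GLUL, 24 for MST4, 25 for EMC10, and 2 for GPAT2, and the median over 27305 RefSeq promoters of that length was 11. At least as many were found in 21.3% of all promoters for GLUL and EMC10, 23.3% for MST4, and 84.6% for GPAT2. These windows thus include CG-rich ones and a CG-poor one, that of GPAT2 alone. The GPAT2 window lies inside the gene as placed by GENCODE, which begins at chr2:96705199 on this strand. By the same placement, the GLUL window lies inside its gene, which begins at chr1:182361341. The MST4 window also lies inside its gene, which begins at chrX:131157330. The EMC10 window spans the gene start at chr19:50979657. These starts were not examined. DNA methylation was not measured in these libraries.

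In all, 9 genes had at most 3 reads in each library of one DKO line and at least 30 in each library of the other, a rule set after the values were seen. Those near absent from DKO1 were KRBOX1, EMC10, PTGFRN, CMKLR1, and LHFPL4, and those near absent from DKO2 were ZNF154, DCAF8L1, DCAF8L2, and PARP15. ZNF154, a KRAB zinc finger gene, had 80 and 64 reads in DKO1, 0 and 0 in DKO2, and 0 and 1 in parental cells. DCAF8L1, an X-linked retrogene related to the ubiquitin ligase adaptor gene DCAF8, had 86 and 109 reads in DKO1, 0 and 0 in DKO2, and 0 and 1 in parental cells. Both were therefore RNAs of DKO1 that neither DKO2 nor parental cells had above 1 read, and all 8 libraries of the SAP30-KO and MLL1-KO lines had 0 reads of either. Compared with DKO2, ZNF154 was at least 24.1-fold higher and DCAF8L1 at least 32.7-fold higher in DKO1. Both met the filter of at least 1 TPM in at least 2 libraries only through the DKO1 libraries, where they were high. Their values are therefore a description of DKO1. DCAF8L2, the neighboring relative on the X chromosome, had 36 and 39 reads in DKO1, 0 and 0 in DKO2, and 12 and 13 in parental cells. CMKLR1, the chemerin receptor, had 0 and 0 reads in DKO1, 49 and 59 in DKO2, and 479 and 531 in parental cells, so that it was lower in both DKO lines than in parental cells. The other lines varied in these genes as well: mean EMC10 was 0.0608 TPM in MLL1-KO1, 24.8 in MLL1-KO2, 7.42 in SAP30-KO1, and 11 in SAP30-KO2.

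Among the other genes with the largest differences, GSTM1, a glutathione S-transferase, measured 20.6 and 20 TPM in DKO1, 1.70 and 1.95 in DKO2, and 18.9 and 15.7 in parental cells (log2 difference 3.16 ± 0.11 SE). DOCK2, a Rac activator best known from blood cells, measured 10.8 and 11.1 TPM in DKO1, 0.955 and 0.915 in DKO2, and 11.7 and 10.8 in parental cells (3.0 ± 0.10). For both genes DKO1 lay near the parental libraries, slightly above them in GSTM1, and DKO2 was far lower. ENG, endoglin, a coreceptor for TGF-β family ligands, measured 5.42 and 4.79 TPM in DKO1, 0.409 and 0.683 in DKO2, and 65.8 and 65.7 in parental cells (2.43 ± 0.12), so both DKO lines were far below parental cells and DKO2 the more so. MMP1, interstitial collagenase, measured 14.6 and 16.1 TPM in DKO1, 2.49 and 2.78 in DKO2, and 8.80 and 9.03 in parental cells (2.34 ± 0.11), with parental cells between the DKO lines. CLDN4, a tight junction claudin, measured 30.8 and 30.3 TPM in DKO1, 8.54 and 5.39 in DKO2, and 42.5 and 41.4 in parental cells (2.09 ± 0.20). SRPX (1.68), the growth factor gene MDK (1.68), C1orf115 (1.69), SELENBP1 (1.49), and MT1F, a metallothionein (2.26), were also higher in DKO1 by these log2 differences, with adjusted p from 1.1e-06 to 0.0018 (limma). SPINK1, a serine protease inhibitor, had 23 and 17 reads in DKO1, 6 and 6 in DKO2, and none in parental cells (1.47 ± 0.35), and it was not called without DKO1 replicate 1, DKO1 replicate 2, or DKO2 replicate 2. The calls of 4 genes for small RNAs that the naming rule also returned, MIR4749, MIR3189, MIR663A, and SNORD89, rested on 1 to 12 reads in each DKO1 library and 0 to 3 in each DKO2 library. Such reads from mRNA libraries do not measure the mature small RNAs.

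**Figure D2:**
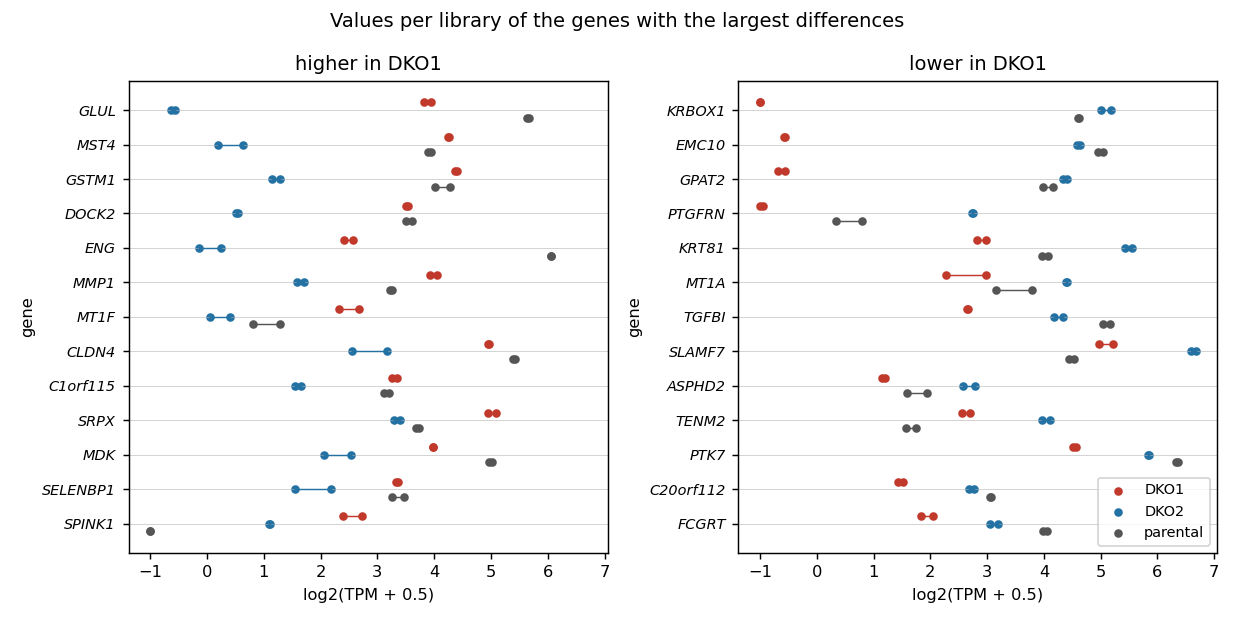
Level (x axis, log2(TPM + 0.5)) in each library of DKO1 (red), DKO2 (blue), and parental cells (gray) for 13 of the genes with the largest differences in each direction; a line joins the 2 libraries of a line. The rule for naming these genes required that the red and blue points not overlap. Parental cells lie near DKO1 in some genes (DOCK2, SELENBP1), near DKO2 in others (KRBOX1, GPAT2), and outside both in ENG, TGFBI, and PTK7.

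Among the genes lower in DKO1, PTGFRN, a surface partner of tetraspanins, had 0 and 1 reads in DKO1, 320 and 317 in DKO2, and 34 and 53 in parental cells, so it was lower than parental cells in DKO1 and higher in DKO2. KRT81, a hair keratin, measured 6.60 and 7.37 TPM in DKO1, 46.3 and 42.7 in DKO2, and 15.2 and 16.2 in parental cells (log2 difference -2.59 ± 0.07 SE), again with parental cells between. TGFBI, a secreted matrix protein induced by TGF-β, measured 5.83 and 5.72 TPM in DKO1, 17.7 and 19.8 in DKO2, and 32.3 and 35.5 in parental cells (-1.62 ± 0.06). The pseudokinase PTK7 had the same order, at 23.3 and 22.2 TPM in DKO1, 56.5 and 57.5 in DKO2, and 79.4 and 81.3 in parental cells (-1.31 ± 0.05). SLAMF7, a surface receptor known from immune cells, had the reverse order relative to parental cells, at 30.8 and 36.9 TPM in DKO1, 101.5 and 95.8 in DKO2, and 22.6 and 21.3 in parental cells (-1.54 ± 0.09). TENM2, a teneurin adhesion protein, did likewise, at 5.97 and 5.42 TPM in DKO1, 15.1 and 16.6 in DKO2, and 2.86 and 2.47 in parental cells (-1.40 ± 0.12). Differences of MT1A (-1.76), ASPHD2 (-1.51), C20orf112 (-1.25), the neonatal Fc receptor gene FCGRT (-1.18), the pentraxin receptor gene NPTXR (-1.15), and C10orf35 (-1.15) also passed the test. C10orf35 was not called without DKO1 replicate 1, DKO1 replicate 2, or DKO2 replicate 2.

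Gene lists were then counted, to be read against the background of 1.22% higher and 1.01% lower and the median difference of all genes tested, -0.013. Most of the 302 genes were on none of these lists. Targets of ATF4, the transcription factor of the amino acid response, and amino acid synthesis genes were higher in DKO1 in 9 of 41 tested and lower in none, and the median of the list was 0.28. The 9 genes were GLUL, NUPR1, GDF15, TRIB3, SLC7A11, DDIT4, CHAC1, CTH, and SLC6A9. TRIB3, a pseudokinase induced by ATF4, measured 84.7 and 89.1 TPM in DKO1, 53.5 and 36.5 in DKO2, and 26.3 and 28 in parental cells. SLC7A11, the cystine/glutamate exchanger, measured 39.2 and 39.0 TPM in DKO1, 23.6 and 21.5 in DKO2, and 33.9 and 29.7 in parental cells. Against the same parental libraries, the list median was 0.39 in DKO1, with 14 members higher and 1 lower, and 0.08 in DKO2, with 5 higher and 2 lower. Of all genes tested, 7.76% were higher and 8.66% lower in DKO1, and 6% were higher and 7.56% lower in DKO2. The group also moved within DKO2: 36 of 41 members were higher in replicate 1 than in replicate 2, by a median of 0.20. Over all genes tested with at least 50 reads in both DKO2 libraries, that median was -0.016. The share of all genes higher in replicate 1 was not counted. For the list, the median difference of DKO1 was 0.19 from DKO2 replicate 1 and 0.43 from DKO2 replicate 2. Correspondingly, 15 members were called without DKO2 replicate 1, 4 without DKO2 replicate 2, and 5 without DKO1 replicate 2. NUPR1 was not called without DKO1 replicate 1, DKO1 replicate 2, or DKO2 replicate 2, and GDF15 was not called without DKO1 replicate 2. The part of the difference between the DKO2 libraries in this count was not tested beyond these values.

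Inflammatory cytokines and their receptors followed a similar pattern, with 6 of 25 tested higher in DKO1, 1 lower, and a list median of 0.40. The 6 were CCL26, IL1R1, TNFSF15, IL1B, IL8, and CSF1, and the gene lower in DKO1 was TNFSF10, the death ligand TRAIL. TNFSF15, a ligand of the tumor necrosis factor family, measured 6.51 and 6.66 TPM in DKO1, 3.27 and 2.78 in DKO2, and 2.49 and 2.34 in parental cells. IL1R1, the interleukin-1 receptor, measured 3.62 and 3.95 TPM in DKO1, 1.62 and 1.41 in DKO2, and 2.41 and 2.53 in parental cells. TNFSF15 was thus above the parental level in DKO1, whereas the parental IL1R1 level lay between the DKO lines. The neutrophil chemokine gene IL8 was at 98.5 and 98.8 TPM in DKO1, 75.8 and 52.5 in DKO2, and 18.9 and 17.8 in parental cells, and CSF1, the macrophage growth factor gene, was at 227.7 and 237.5 TPM in DKO1, 173.1 and 134.4 in DKO2, and 160.7 and 152.0 in parental cells. As with the ATF4 targets, the list was higher in DKO2 replicate 1 than in replicate 2, by a median of 0.24, and its median difference was 0.17 from DKO2 replicate 1 and 0.69 from DKO2 replicate 2. CCL26 was not called without any of the 4 DKO libraries, nor IL1B without DKO1 replicate 1, DKO1 replicate 2, or DKO2 replicate 2. The count of cytokines higher in DKO1 was 3 without DKO1 replicate 1, 2 without DKO1 replicate 2, 2 without DKO2 replicate 2, and 9 without DKO2 replicate 1.

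Targets of NRF2, the oxidative stress factor, were higher in DKO1 in 5 of 31 (GSTM1, AKR1C1, AKR1C3, GSTM2, and SLC7A11, the last also on the ATF4 list) and lower in none, with a median of 0.16. AKR1C3, an aldo-keto reductase, measured 16.2 and 15 TPM in DKO1, 6.78 and 6.13 in DKO2, and 4.92 and 5.55 in parental cells. Reads of GSTM1 and GSTM2, and of AKR1C1 and AKR1C3, may be split between near-identical copies. GSTM2 was not called without DKO1 replicate 1, DKO1 replicate 2, or DKO2 replicate 2.

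Matrix proteases and their inhibitors were higher in DKO1 in 6 of 38 (MMP1, SPINK1, CST1, CST4, MMP16, and CST2) and lower in none, with a median of 0.06. CST1, a secreted cystatin that inhibits cysteine proteases, measured 135.9 and 141.2 TPM in DKO1, 59.7 and 62.4 in DKO2, and 19.4 and 18.2 in parental cells. CST4, its near copy, measured 79.0 and 86.1 TPM in DKO1, 48.3 and 37.1 in DKO2, and 15.9 and 15.7 in parental cells, and reads of the cystatin copies may be split as well. Both cystatins were above the parental level in both DKO lines and more so in DKO1. The list thus held proteases and inhibitors of proteases together, 2 and 4 of the 6.

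Keratins and desmosomal genes had the opposite sign, with 3 of 19 lower in DKO1 (KRT81, KRT19, and JUP), none higher, and a median of -0.13. KRT19, a keratin of simple epithelia, measured 113.2 and 113.9 TPM in DKO1, 234.2 and 195.0 in DKO2, and 432.0 and 444.4 in parental cells. JUP, plakoglobin, measured 1.68 and 2.11 TPM in DKO1, 3.56 and 3.11 in DKO2, and 17.4 and 19.9 in parental cells. Both were lower than in parental cells in both DKO lines, and lowest in DKO1, although JUP was not called between the DKO lines without DKO1 replicate 1, DKO2 replicate 1, or DKO2 replicate 2. Semaphorins, plexins, ephrins, and Eph receptors, which guide axons and migrating cells, were lower in DKO1 in 4 of 45 (EPHB3, EFNA1, SEMA3D, and SEMA3B) and higher in none, with a median of -0.03. SEMA3D, a secreted semaphorin, measured 3.27 and 3.2 TPM in DKO1, 5.68 and 5.72 in DKO2, and 3.91 and 3.54 in parental cells. EFNA1 was not called without DKO1 replicate 1, DKO2 replicate 1, or DKO2 replicate 2, nor SEMA3B without DKO1 replicate 1 or DKO2 replicate 1.

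Clustered protocadherins, neuronal adhesion genes arrayed on chromosome 5, differed in single genes in both directions: PCDHB5, PCDHB2, PCDHB15, and PCDHB8 were higher in DKO1, PCDHB14 was lower, and the median of the 51 tested was -0.15. PCDHB5 measured 4.54 and 5.02 TPM in DKO1, 0.245 and 0.585 in DKO2, and 0.383 and 0.295 in parental cells, so both DKO1 libraries were far above the parental libraries, while the DKO2 libraries spanned them. PCDHB2 measured 2.81 and 1.81 TPM in DKO1, 0.305 and 0.356 in DKO2, and 7.44 and 8.01 in parental cells, below parental in both lines. Genes of these clusters are near-identical in sequence and the α and γ clusters share exons, so their reads cannot all be assigned to single genes. Metallothioneins also moved apart, with MT1F higher and MT1A lower in DKO1 among 7 tested. MT1F rested on few reads, 22 and 16 in DKO1, 2 and 3 in DKO2, and 4 and 6 in parental cells. The cancer-testis genes MAGEC2 and MAGEC1 moved apart as well. MAGEC2 was at 5.02 and 3.59 TPM in DKO1 and 1.07 and 0.669 in DKO2, and MAGEC1 was at 8.01 and 9.14 TPM in DKO1 and 16.2 and 15 in DKO2.

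**Figure D3:**
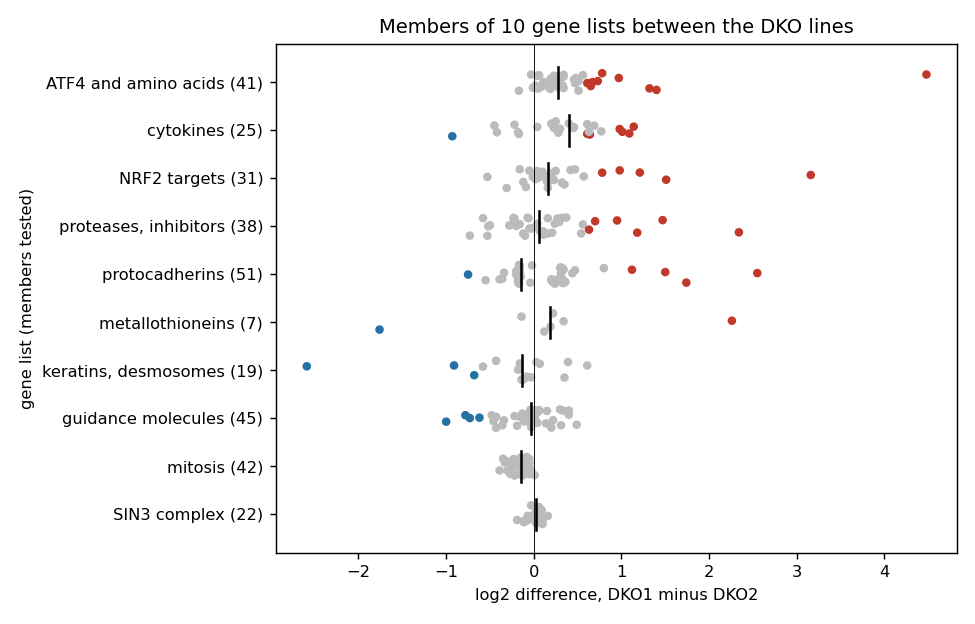
Difference between DKO1 and DKO2 (x axis, log2) for each tested member of 10 gene lists, 1 point per gene, with the number tested in parentheses and the list median as a black bar. Red members are called higher in DKO1 and blue members lower; the ATF4, cytokine, NRF2, and protease lists hold more red points than blue, the keratin and guidance lists hold blue only, and the mitosis and SIN3 complex lists hold neither.

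Of 17 claudin and tight junction genes, CLDN4 and CLDN1 were higher in DKO1 and PARD6B, a polarity protein gene, was lower, with a list median of -0.08. Among genes of the TGF-β and BMP pathway, ENG and INHBA, an activin subunit gene (1.08), were higher in DKO1 and TGFBI was lower, out of 39. Of 36 interferon-stimulated genes, BST2, the virus-tethering protein tetherin, was higher in DKO1 at 66.3 and 67.9 TPM against 35.0 and 34.6 in DKO2 and 66.7 and 72.7 in parental cells, and MX1 (-0.67) and SAMD9L (-0.61) were lower. MX1 was not called without DKO1 replicate 1 or DKO2 replicate 2, nor SAMD9L without DKO1 replicate 2 or DKO2 replicate 2. Higher in DKO1 were ITGB3 (0.89) and ITGA10 (0.64) of 24 integrins and laminins, and CA9 and NDRG1 (0.81) of 42 glycolysis and hypoxia genes. So were ACTG2 (0.76) of 23 contractile genes and HSPA2 (0.60) of 21 heat shock chaperones. Of 29 WNT pathway genes, the ligand gene WNT7B (0.68) was higher and TCF7 (-0.80) was lower. Lower in DKO1 were COL5A2 (-0.74) of 20 collagens, EREG (-0.66) of 12 EGFR family genes, and ANGPTL4 (-0.65) of 26 vessel growth factor genes. SNAI1 (-0.75) of 17 epithelial-mesenchymal transition genes, HOXB9 (-0.95) of 11 HOX genes, and CSPG4 (-0.99) of 18 proteoglycan genes were also lower. With 1 or 2 calls a list, these are results for single genes and not for the lists. ITGA10, EREG, and PARD6B (-0.70) were not called without DKO1 replicate 2, nor ACTG2 without DKO2 replicate 2. ANGPTL4 and TCF7 were not called without DKO1 replicate 1, DKO1 replicate 2, or DKO2 replicate 2, SNAI1 and HSPA2 without DKO1 replicate 2, DKO2 replicate 1, or DKO2 replicate 2, and COL5A2 without any of the 4. No member was called in the lists of MHC class I, Notch, YAP, AP-1, ion channel, DNA replication, mitosis, cyclin D and CDK inhibitor, cholesterol, oxidative phosphorylation, or ribosomal protein genes. Some of these lists leaned one way without a call. For comparison, the differences of all genes tested had a median of -0.013 and an SD of 0.322. The leaning of these lists was not tested. Among the mitosis genes, 41 of 42 had a difference below 0, with a median of -0.15, which was -0.11 from DKO2 replicate 1 and -0.18 from DKO2 replicate 2. Among the AP-1, EGR, MYC, and MAPK feedback genes, 30 of 36 had a difference above 0, with a median of 0.18, which was 0.11 from DKO2 replicate 1 and 0.27 from replicate 2. Among the cholesterol and fatty acid synthesis genes, 28 of 33 had a difference above 0, with a median of 0.16, which was 0.12 and 0.21 from these libraries.

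Of 9 further genes chosen from those named in the study, 1 was called between the DKO lines. ARTN, which the study also names as corepressed, was not among the 9. CLDN1 measured 2.87 and 2.47 TPM in DKO1, 0.998 and 1.51 in DKO2, and 10.2 and 11 in parental cells (0.86 ± 0.20, limma adjusted p = 0.02), so both lines were below parental cells. It was not called without DKO1 replicate 1, DKO1 replicate 2, or DKO2 replicate 1. The difference between the lines was -0.31 for PDGFB (95% interval -0.76 to 0.14), -0.14 for PDGFD (-0.51 to 0.24), -0.16 for RDX (-0.30 to -0.01), and 0.35 for ADM2 (-0.15 to 0.84). It was 0.16 for NOTCH3 (-0.29 to 0.60), -0.39 for HSPA6 (-0.83 to 0.05), 0.09 for IPO13 (-0.06 to 0.23), and 0.10 for SAP30 (-0.29 to 0.50). Against parental cells, PDGFB, PDGFD, CLDN1, RDX, ADM2, and NOTCH3 were lower and HSPA6 and IPO13 were higher in DKO1, and the same directions were found in DKO2, with the parental libraries shared by both comparisons.

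The position of parental cells was then examined for the 302 genes. Parental cells could lie below both lines, between them, or above both. Of the 165 genes higher in DKO1, the parental mean lay above both lines in 57 (34.5%), below both in 44 (26.7%), and between them in the rest, where it was nearer to DKO1 in 32 and nearer to DKO2 in 32. Of the 137 genes lower in DKO1, it lay above both lines in 73 (53.3%), below both in 21 (15.3%), and between them nearer to DKO1 in 21 and nearer to DKO2 in 22. Neither line was therefore closer to parental cells throughout. Tested against parental cells, 8.66% of all genes were lower and 7.76% higher in DKO1, and 7.56% were lower and 6% higher in DKO2. Of the 165 genes, 68 were higher and 35 lower in DKO1, and 16 were higher and 78 lower in DKO2. Of the 137, 8 were higher and 92 lower in DKO1, and 35 were higher and 33 lower in DKO2. The comparisons share the parental libraries, so these counts are not independent of each other. The genes were also chosen by the difference between the DKO lines. A shift of DKO1 against DKO2 relative to parental cells follows from that choice. These counts and those below are therefore not to be compared with the rates of all genes.

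Taking the calls against parental cells side by side, the 165 genes included 47 that were higher only in DKO1 by the threshold, 38 lower only in DKO2, 35 lower in both, 16 higher in both, and 24 called in neither. The 137 genes included 52 lower only in DKO1, 33 lower in both, 20 higher only in DKO2, 8 higher in both, and 17 called in neither. The remaining 12 genes, 5 of the 165 and 7 of the 137, passed the test in opposite directions. Those higher than parental cells in DKO1 and lower in DKO2 were DCAF8L2, MMP1, CA9, ZNF492, and AKR1C1. CA9, a carbonic anhydrase induced by hypoxia, had 32 and 21 reads in DKO1, 1 and 1 in DKO2, and 16 and 10 in parental cells. Those lower in DKO1 and higher in DKO2 were PTGFRN, NAP1L3, KRT81, LHFPL4, MT1A, ASPHD2, and SH2D2A. NAP1L3, an X-linked nucleosome assembly gene, measured 0.256 and 0.269 TPM in DKO1, 4.65 and 3.65 in DKO2, and 1.06 and 1.35 in parental cells. Genes whose parental mean fell within the range of one line's libraries included NPTXR, with 5.15 and 5.61 TPM in DKO2 and 5.12 and 5.33 in parental cells, and SLC12A7, with 1.34 and 1.05 TPM in DKO2, 1.26 and 1.4 in parental cells, and 0.244 and 0.163 in DKO1. TMOD2 (-0.87) and P2RX6 (-0.81) were also of this kind, as were the small RNA gene MIR4677, with 0 to 2 reads per DKO library, SELENBP1, and PCDHB5. P2RX6 was not called without DKO1 replicate 1, DKO2 replicate 1, or DKO2 replicate 2, and the calls of MIR4677, MIR4749, MIR3189, and SNORD89 were lost without at least 3 of the 4 DKO libraries.

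**Figure D4:**
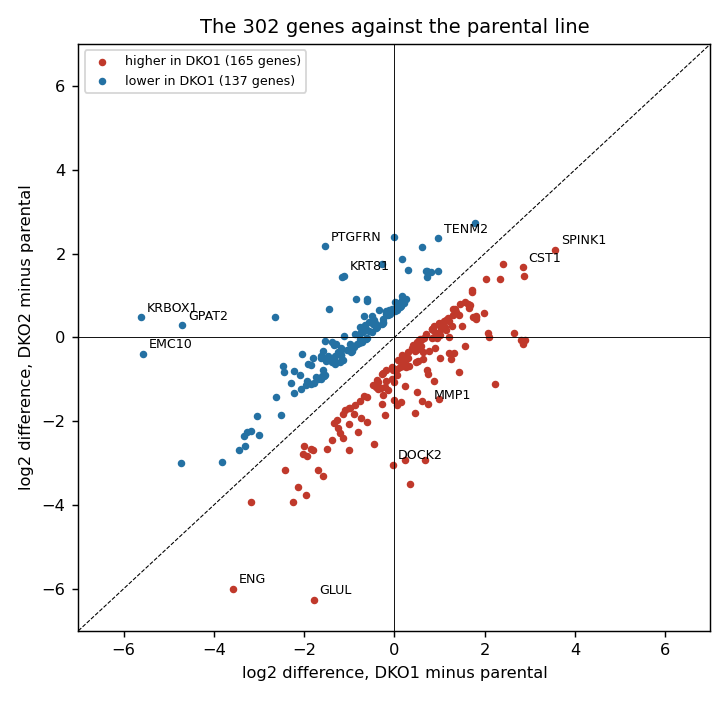
Difference from parental cells (log2) in DKO1 (x axis) and DKO2 (y axis) for the 302 genes, 165 higher in DKO1 (red) and 137 lower (blue); the dashed line marks equal values. Both axes share the parental libraries, and the gap along the dashed line follows from choosing genes that differ between the lines; GLUL and ENG lie far below 0 on the y axis, and KRBOX1, EMC10, and GPAT2 far below 0 on the x axis.

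The called genes were spread over the autosomes and the X chromosome, from 1.08% of the tested genes on chromosome 16 to 4.08% on chromosome 5, where 10 were higher and 15 lower in DKO1. Medians of 51 neighboring genes lay within 0.1 of 0 in 95% of windows. The lowest was -0.35, from UIMC1 to TRIM52 at the end of the long arm of chromosome 5 (GRCh37, chr5:176332006-180688151), where 47 of 51 genes had a difference below 0 and 4 were called lower in DKO1. DBN1, the actin-binding protein drebrin, measured 112.3 and 111.4 TPM in DKO1, 170.3 and 169.5 in DKO2, and 106.0 and 96.8 in parental cells. FGFR4, a fibroblast growth factor receptor, F12, coagulation factor XII, and TRIM52 were the others. Over that window the median difference from parental cells was 0.05 in DKO1 and 0.36 in DKO2, so the shift was that of DKO2. The highest window was also on chromosome 5, from PROB1 to PCDHB16, with a median of 0.21, 4 genes called higher, and 1 called lower. It holds the α protocadherin genes PCDHA1 to PCDHAC2, which share exons and had similar differences. The same reads may therefore count more than once in its median. DNA copy number was not measured.

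**Figure D5:**
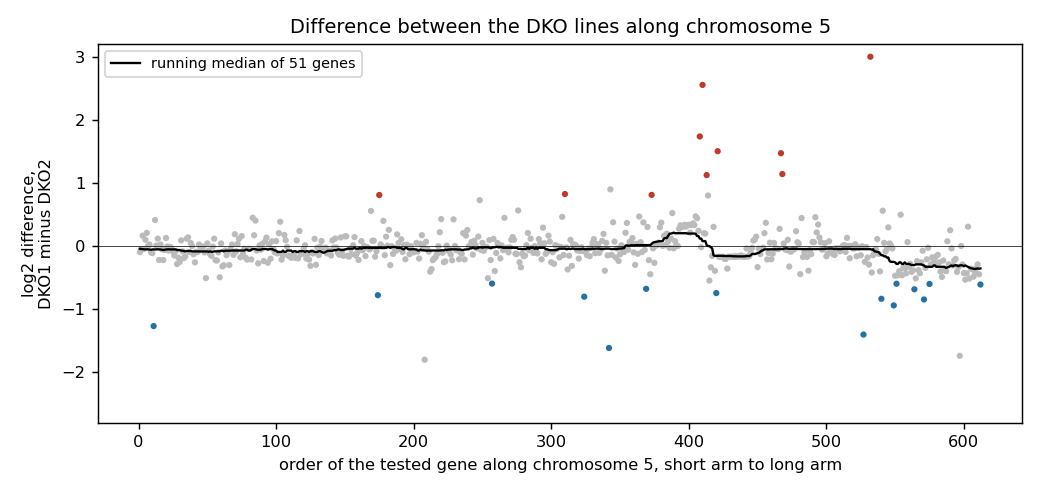
Difference between DKO1 and DKO2 (y axis, log2) for each tested gene of chromosome 5 in order along the chromosome (x axis), with called genes in red (higher in DKO1) or blue (lower) and the running median of 51 genes, over fewer genes at the ends, in black. The median leaves 0 in a short stretch of the long arm, where the protocadherin genes lie, and falls to about -0.35 at the end of the long arm.

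Markers were examined to check the cells. VIM, the mesenchymal intermediate filament vimentin, was at 5892 to 6466 TPM in the DKO libraries, and the 7 markers of mesenchymal TNBC cells summed to 9597 to 9642 TPM in DKO1, 8995 to 9211 in DKO2, and 8786 to 8931 in parental cells, with SPARC under 1 TPM throughout. The 10 luminal markers summed to 176.4 to 177.1 TPM in DKO1, 264.1 to 302.4 in DKO2, and 530.9 to 543.4 in parental cells, mostly KRT19, and PGR was at 0 in all 4 DKO libraries. Markers of blood cells, endothelium (CDH5 at 0), and fibroblasts (DCN at 0) were carried by genes such as CD68 and ESAM. The blood cell markers summed to 250.3 to 255.6 TPM in DKO1 and 236.7 to 240.6 in DKO2, those of endothelium to 218.3 to 231.5 and 184.6 to 198.7, and those of fibroblasts to 6.86 to 6.98 and 6.35 to 7.84. Their part in the results was not tested. In bulk RNA, fewer cells that express a gene and less RNA per cell cannot be told apart.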

How the data were processed

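RNA-Seq was performed by the authors on parental MDA-MB-231 cells and 6 CRISPR/Cas9 lines, with 2 libraries each, from total RNA (RNeasy) with the KAPA mRNA Hyper Prep kit. The submitters' processing notes name FastQC 0.11.2, TopHat, featureCounts, and hg19. The authors deposited 1 table of values per gene and library, named RPKM, without pooling. The deposited values add up to 1000000 in each library and were used as TPM; the test planned for RPKM suits both and was kept. The step between low values gave back whole reads in 100.0% of 18519 genes above 0 (within 0.02 of a whole read), from 18415036 to 23162682 per library, and from 22050572 to 23162682 in the DKO libraries. Values resting on few reads have wide errors, and intervals cover counting error only.

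Genes with at least 1 TPM in at least 2 of 14 libraries were tested. Values were taken as log2(TPM + 0.5), which understates changes of low genes, and fitted as 7 group means over 14 libraries with limma 3.58.1 (R 4.3.3), with a trend of variance on mean and 7 residual and 3.6 prior degrees of freedom. Calls needed a Benjamini-Hochberg adjusted p under 0.05 and 1.5-fold. The procedure was tested on simulated data with the same spread in every line. That test therefore does not cover the wider spread between the DKO2 libraries. The groups and replicate numbers are those of the labels. Gene names were used as deposited, with positions from GENCODE 44 on GRCh37. In the table, 28 names had become dates and are not named. Counts and intervals were made with scipy 1.17.1, pandas 2.3.3, and numpy 2.4.6 in Python 3.11.15, and plots with matplotlib 3.10.9.

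Genes named are SIN3A and SIN3B; 9 genes the study names; in each direction the 15 largest differences among called genes with a mean of at least 5 TPM in the higher line and no overlap; up to 4 called members per list; up to 5 each way of those called in opposite directions against parental cells or with parental cells within the range of one line; and the end genes of the extreme windows. The genes on in one line, other called list members, and genes of the lowest window were named after their values were seen. The comparison, lists, and rules were chosen with earlier results of these data known. Alternatives were other pseudocounts, filters, scalings, fold minimums, library subsets, weights, the replicate block, leaving out libraries, removal of neighbouring trends, and voom on recovered reads. Protein, chromatin, and tumor data were not analysed here.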

Additional observations from a re-analysis of the deposited data

Results flagged for a closer look

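The following 12 genes differed from the same parental libraries in opposite directions in the DKO lines. They were taken from the genes already called between the DKO lines (limma). That the difference between the lines passed in each therefore follows from this choice and adds no support. On the log2 scale, DKO1 minus DKO2 was -3.72 in PTGFRN, -2.60 in NAP1L3, -2.59 in KRT81, -2.11 in LHFPL4, -1.76 in MT1A, -1.51 in ASPHD2, and -1.48 in SH2D2A. It was 1.51 in AKR1C1, 1.61 in ZNF492, 2.13 in CA9, 2.34 in MMP1, and 2.46 in DCAF8L2. Against parental cells, KRT81 fell by 1.12 in DKO1 and rose by 1.47 in DKO2, and MMP1 rose by 0.75 in DKO1 and fell by 1.59 in DKO2. MMP1 and KRT81 each had at least 2.49 TPM in every DKO library, whereas AKR1C1, CA9, DCAF8L2, LHFPL4, PTGFRN, and SH2D2A had at most 3 reads in each library of one line.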

How the results depend on the processing

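Counts of genes higher and lower in DKO1 than in DKO2 (165 and 137) stayed within 1.5 times under the other pseudocounts, scalings, and filters, removal of neighbouring trends, voom on the recovered reads (402 genes called, 289 of them shared), and restriction to placed genes, which was chosen after seeing the data. They were 33 and 21 on the 4 libraries alone, 68 and 43 with a 2-fold minimum, and 908 and 785 with none. The genes higher in DKO1 numbered 106 with array weights and 91 on the 6 libraries of parental and DKO cells. Leaving out a DKO library gave 97 to 254 genes higher and 103 to 171 lower. Same-numbered libraries did not deviate together (r from -0.073 to 0.082 over 21 pairs of lines), and with the replicate block the counts were 166 and 136, with 294 genes shared.

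Against parental cells, the 2-fold minimum gave 309 higher and 512 lower in DKO1, and 230 higher and 474 lower in DKO2; without a minimum these were 3769, 3820, 3476, and 3238. With the running median removed, 541 genes were higher in DKO2.

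All alternatives for the lists were added after seeing the data. ATF4 list members higher in DKO1 (9) numbered 1 on 4 libraries, 2 on 6, 3 with a 2-fold minimum, 24 with none, and 4 to 15 with a library left out. Cytokines (6) numbered 0, 3, and 3 in the first 3 of these settings, and 2 to 9 with a library left out. With the 2-fold minimum, parental cells lay below both lines in 17.6% of genes higher and 9.3% of genes lower in DKO1, and between but nearer to DKO1 in 23.3% of the latter. Windows of 25 genes gave a highest median of 0.33, and the other medians by window size moved by less than 0.1. The place of the highest window depended on the size. With windows wider than 51 genes it lay on chromosome 19, from MIR4745 to TICAM1, with a median of 0.12, and no longer on chromosome 5. The lowest window was on chromosome 5 at every size. Of 84 named genes that were called, 24 kept their call in every fit that tested them (LHFPL4 was not tested at 5 TPM), and none reversed; 59 lost it on the 4 libraries alone. The cause was not tested.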
